A study of Homo sapiens with 17 samples.

Results

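The 250 protein-coding genes of human chromosome 19 whose symbols are ZNF followed by a number were taken from the RefSeq gene table for GRCh38.p14, out of 20037 protein-coding genes in all. For each gene, the summits of CUT&Tag peaks were collected within the gene and 1000 bp beyond each end. CUT&Tag is an assay in which an antibody on chromatin guides the Tn5 transposase to cut the DNA beside it, and a summit is the base of highest signal of a called peak. Strand was known for 219 of the 250 genes, and only these enter statements on 5' ends, 3' ends and gene bodies. The list includes 4 joint or divergent entries (ZNF559-ZNF177, ZNF816-ZNF321P, ZNF765-ZNF761 and ZNF470-DT) that share summits with the genes they overlap or face.

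The data came from H1, an established human embryonic stem cell line grown in mTeSR1 medium. The libraries were 2 HNRNPU repeats of untransfected cells, 2 POLIIS2P repeats of shLUC cells and 1 POLIIS2P library of shHNRNPU#1 cells. Either histone mark, H3K4me1 or H3K27ac, was profiled in 2 repeats per hairpin, namely shHNRNPU#1, shHNRNPU#2 and shLUC. shHNRNPU#1 and shHNRNPU#2 are virus-delivered short hairpin RNAs against HNRNPU, shLUC is the hairpin control against luciferase, and the transduced cells were selected with puromycin. No HNRNPU library of shHNRNPU cells was analysed here, so the depletion itself could not be checked.

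Zinc finger genes of this kind encode arrays of C2H2 fingers that read DNA sequence, and many carry a KRAB domain, which binds the corepressor TRIM28 and through it the H3K9 methyltransferase SETDB1. Many of these proteins silence transposable elements in pluripotent cells. The genes lie in tandem clusters that grew by duplication, and their 3' exons are known for repressive H3K9 methylation while their promoters can stay active. HNRNPU, also called scaffold attachment factor A, is a nuclear protein that binds RNA. H3K4me1 marks enhancers and the flanks of promoters, H3K27ac marks active promoters and enhancers, and POLIIS2P is by its name RNA polymerase II phosphorylated at serine 2 of its tail repeat, the form found on transcribed gene bodies.

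The lists held 34649 and 35526 summits for HNRNPU, 79949 to 87456 for POLIIS2P, 40487 to 85142 for H3K27ac in shHNRNPU cells and 147145 to 214333 for H3K4me1 in shHNRNPU cells. Read depth was unknown. Each summit was therefore expressed as its percentile within its own list, with 100 for the strongest summit, and a gene took the percentile of its highest summit or 0 where it had none. For the 4 shLUC histone libraries, the antibody in the sample title and the antibody in the name of the deposited list were opposite. The lists labelled H3K27ac shLUC held 179137 and 181357 summits, within the range of the H3K4me1 shHNRNPU lists. Those labelled H3K4me1 shLUC held 62449 and 90914, the first within the range of the H3K27ac shHNRNPU lists and the second just above it. At the 5' ends of the ZNF genes the libraries labelled H3K27ac shLUC ranked the 219 genes much as the H3K4me1 shHNRNPU libraries did, with Spearman's rho of 0.77 to 0.87 across genes, against 0.25 to 0.50 with the H3K27ac shHNRNPU libraries. Those labelled H3K4me1 shLUC gave 0.74 to 0.91 against the H3K27ac shHNRNPU libraries and 0.39 to 0.48 against the H3K4me1 shHNRNPU libraries. Genes are not independent replicates, and these values are descriptions. Every histone comparison is given as labelled and again after swapping the antibody names of those 4. As a check of the cells, H3K27ac summits anywhere in the gene or 1000 bp beyond were counted. NANOG, SOX2, SALL4 and LIN28B, genes of pluripotent cells, carried them in all 4 shHNRNPU lists and POU5F1 and DPPA4 in 3. ALB, INS, MYOD1 and GFAP of other lineages had none, although TNNT2 had them in 4. At the 5' end none of these genes of pluripotent cells had a recorded H3K27ac summit in every such list, while TNNT2 had 88.7 or higher in all 4.

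HNRNPU lay at the 5' ends of most chromosome 19 ZNF genes. On average 74.7% ± 3.55 of the 219 genes (SD, n = 2 libraries) had an HNRNPU summit within 1000 bp of the 5' end, against 54.5% of all protein-coding genes, 45.8% of the other genes of chromosome 19 and 70.9% of ZNF genes of other chromosomes. POLIIS2P summits were at 83.0% ± 1.90 of the 5' ends (SD, n = 3), against 57.4% of all genes and 75.7% of ZNF genes of other chromosomes. H3K27ac in shHNRNPU cells was at 58.4% ± 10.1 (SD, n = 4) against 40.4% of all genes, and ZNF genes of other chromosomes had 57.5%, within the spread of the libraries. H3K4me1 in the same cells was at 61.9% ± 7.24 (SD, n = 4) against 57.2% of all genes, a gap smaller than the spread between its libraries. Where a 5' summit was present, POLIIS2P also ranked high in its lists. Its median percentile was 90.1 in the ZNF genes against 81.7 over all genes, as means over libraries. HNRNPU summits were no higher than elsewhere, with 77.4 against 77.7. Counting genes with and without a summit, POLIIS2P exceeded the 90th percentile at 42.9% of ZNF gene 5' ends against 18.3% of all genes. HNRNPU did so at 22.1% against 14.8%, a gap that includes its more frequent presence.

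At the 3' ends the ZNF genes had summits of every antibody less often than all protein-coding genes. The 3' window of a gene can take in the 5' end of a neighbouring gene, and such summits were counted. HNRNPU summits lay within 1000 bp of the 3' end of 2.05% of the ZNF genes against 5.70% of all genes and 12.4% of the other genes of chromosome 19. H3K27ac was at 3.08% of ZNF gene 3' ends against 8.62% of all genes, and H3K4me1 was at 5.25% against 17.4%. POLIIS2P was at 23.9% ± 1.73 of ZNF gene 3' ends (SD, n = 3) against 26.7% of all genes, 41.5% of the other genes of chromosome 19 and 29.5% of ZNF genes of other chromosomes. Its 3 libraries spanned 21.9% to 25.1% for the ZNF genes and 25.7% to 27.4% over all genes. The share at the 5' end minus the share at the 3' end was 72.6 points for HNRNPU (SD 3.87, n = 2), 59.1 for POLIIS2P (SD 3.24, n = 3), 55.4 for H3K27ac (SD 8.27, n = 4) and 56.6 for H3K4me1 (SD 7.49, n = 4). Over all genes the same differences were 48.8, 30.7, 31.8 and 39.8 points, and over ZNF genes of other chromosomes 66.5, 46.2, 50.7 and 53.1.

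**Figure D1:**
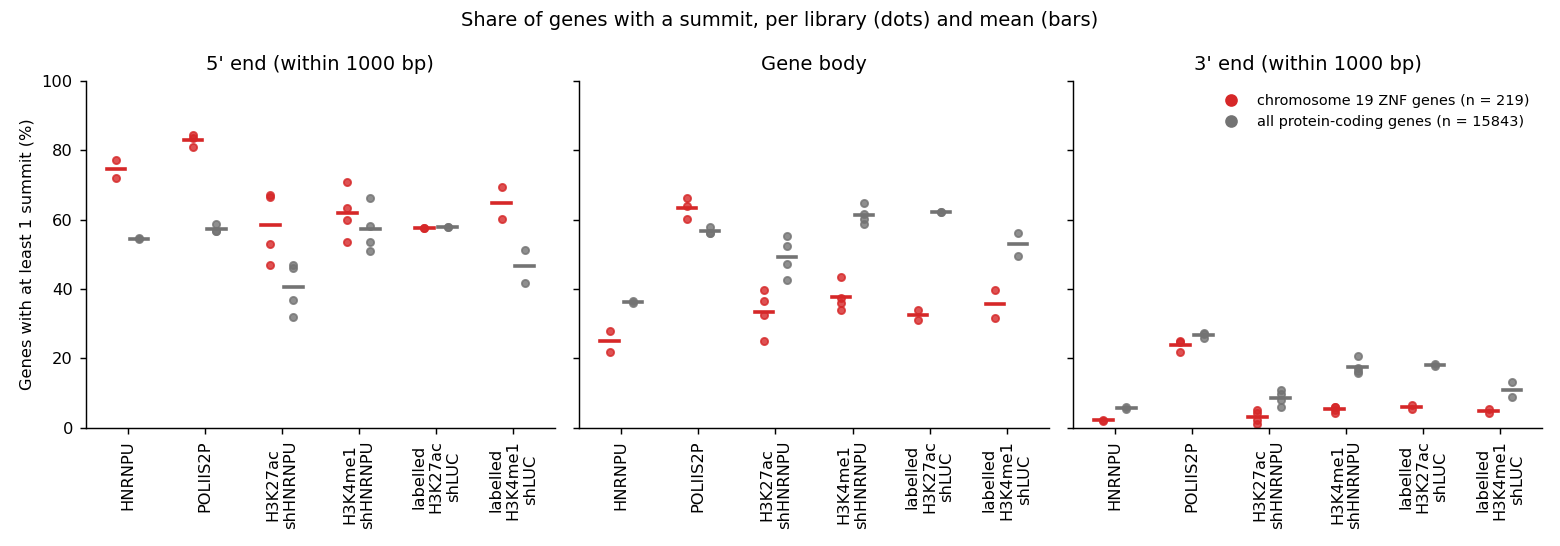
Share of genes (%) with at least 1 summit within 1000 bp of the 5' end, in the gene body and within 1000 bp of the 3' end, for 6 library groups. Dots are libraries and bars their means; the 219 ZNF genes (red) lie above all 15843 protein-coding genes (grey) at the 5' end for HNRNPU and POLIIS2P, and below them at the 3' end for HNRNPU and the histone marks.

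The 5' summits of the antibodies did not fall on the same base. Relative to the outermost base of the gene, the median H3K4me1 summit lay upstream, at -93 to -74 bp over the 4 shHNRNPU libraries, and the median H3K27ac summit lay inside the gene, at 37 to 44.5 bp. HNRNPU lay between them, at -28 and -41 bp, with 82.8% and 77.2% of its 5' summits within 250 bp of the end. POLIIS2P medians were -62, -18 and -28 bp. The libraries labelled H3K27ac shLUC gave -90.5 and -79 bp, and those labelled H3K4me1 shLUC gave 82 and 49.5 bp. Over all protein-coding genes the shHNRNPU medians were -73 to -64 bp for H3K4me1 and 13 to 23 bp for H3K27ac. HNRNPU gave -52 and -49 bp there, with 67.4% and 67.0% within 250 bp, and POLIIS2P -53, -40 and -42 bp. The order of the marks was thus not particular to the ZNF genes.

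The promoters of 3 genes with the highest summits are shown as RefSeq lists them for GRCh38.p14, from 250 bases before to 50 after the start, on the gene's strand. Capitals mark matches on either strand to the CCAAT box, the GC box GGGCGG, the ETS core CCGGAAG or the E-box CACGTG. ZNF627 lies at chr19:11597233-11597532 on the + strand, ZNF8 at chr19:58278705-58279004 on the + strand and ZNF587 at chr19:57849609-57849908 on the + strand.
ZNF627: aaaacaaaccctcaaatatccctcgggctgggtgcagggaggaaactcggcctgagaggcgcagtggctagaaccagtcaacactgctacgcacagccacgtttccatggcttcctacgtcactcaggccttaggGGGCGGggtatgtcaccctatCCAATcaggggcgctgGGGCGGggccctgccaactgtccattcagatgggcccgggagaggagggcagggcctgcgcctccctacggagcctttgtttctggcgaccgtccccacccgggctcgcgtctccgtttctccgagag
ZNF8: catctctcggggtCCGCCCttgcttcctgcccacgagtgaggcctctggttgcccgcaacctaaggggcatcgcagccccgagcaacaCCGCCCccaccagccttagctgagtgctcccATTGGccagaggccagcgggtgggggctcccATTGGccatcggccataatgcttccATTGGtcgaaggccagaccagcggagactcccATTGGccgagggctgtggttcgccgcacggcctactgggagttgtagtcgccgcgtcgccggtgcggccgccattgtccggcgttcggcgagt
ZNF587: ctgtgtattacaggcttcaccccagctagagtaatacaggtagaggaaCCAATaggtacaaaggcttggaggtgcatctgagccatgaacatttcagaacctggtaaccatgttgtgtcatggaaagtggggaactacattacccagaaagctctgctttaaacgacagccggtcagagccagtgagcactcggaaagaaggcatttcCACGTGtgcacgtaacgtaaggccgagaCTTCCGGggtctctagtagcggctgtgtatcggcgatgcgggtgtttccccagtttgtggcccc
ZNF627 was chosen because it was among the highest ZNF genes for HNRNPU and was the highest for H3K27ac. Its HNRNPU summits lay 32 and 104 bp before the gene start, at percentiles 98.4 and 98.7. Its H3K27ac summits in shHNRNPU cells lay within 17 bp of the start, at 99.8, 99.5, 99.9 and 99.97. H3K4me1 was lower and farther upstream, at 122 to 161 bp, with percentiles 87.6, 94.8, 92.4 and 93.3. At ZNF8, which had the highest POLIIS2P levels after ZNF587 and ZNF446, the summits of HNRNPU were 147 and 148 bp before the start at percentiles 98.8 and 98.1, and POLIIS2P was at 99.9, 99.7 and 99.8. ZNF8 shares this stretch with the listed promoters of overlapping entries at the same place, ZNF8-DT on the other strand and ZNF8-ERVK3-1. ZNF587 had the highest POLIIS2P 5' percentile of the 219 genes, 99.91, 99.96 and 99.92, with HNRNPU at 95.2 and 90.9 and H3K27ac at 97.1, 96.7, 93.1 and 95.4. Its antibodies were all inside the printed stretch, with HNRNPU 220 and 187 bp and H3K4me1 69 to 72 bp before the start in shHNRNPU cells.

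Among the genes with the highest HNRNPU 5' summits the histone marks differed. The 5 highest by mean were ZNF787 (99.3, n = 2), ZNF333 (99.3), ZNF226 (98.9), ZNF627 (98.5) and ZNF8 (98.4). ZNF333 had H3K27ac at 96.4, 94.6, 95.9 and 95.3 in shHNRNPU cells, but H3K4me1 at 0, 56.2, 28.3 and 69.3. ZNF226 had no H3K27ac 5' summit in 2 of 4 libraries and 71.4 and 65.0 in the other two. ZNF787 had H3K27ac at 37.7 and 44.8 at its 5' end in both shHNRNPU#2 libraries and none in both shHNRNPU#1 libraries, while the H3K27ac in its body was at 82.8, 89.7, 83.5 and 94.3 and H3K4me1 in its body at 95.9 to 96.9. A high HNRNPU rank thus stood beside either high or low H3K27ac at the same end. ZNF446 gave the same picture for POLIIS2P, with 99.7, 99.9 and 99.8 at its 5' end, HNRNPU at 87.8 and 94.4, and H3K27ac in only 1 of 4 shHNRNPU libraries, at 22.0.

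The highest H3K27ac 5' ends were those of ZNF627, ZNF254 and ZNF431, with means of 99.8, 99.5 and 99.1 over 4 libraries. ZNF254 had H3K4me1 at 35.1, 1.1, 0 and 60.5 at the same end, and HNRNPU at 85.6 and 74.1. ZNF431 had H3K4me1 at 57.7 to 84.9 and HNRNPU at 71.9 and 86.2.

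By presence in repeats, 147 of the 219 genes (67.1%, against 48.1% of all genes) had an HNRNPU 5' summit in both repeats. It was in 1 repeat at 33 (15.1% against 12.9%) and in neither at 39 (17.8% against 39.0%). POLIIS2P was at 173 genes (79.0% against 49.2%) in all 3 libraries and at 28 (12.8% against 34.7%) in none. H3K27ac was at 88 genes (40.2% against 25.5%) in all 4 shHNRNPU libraries and at 54 (24.7% against 44.1%) in none. H3K4me1 was at 102 (46.6% against 40.9%) in all 4 and at 56 (25.6% against 28.4%) in none. Of the 147 genes with HNRNPU in both repeats, 142 (96.6%) had POLIIS2P in all 3 libraries and 0 lacked it in all 3. Over all genes with HNRNPU in both repeats the share with POLIIS2P in every library was 83.9%. Of the same 147 genes, 84 (57.1%) had H3K27ac in all 4 shHNRNPU libraries against 47.9% of all genes with HNRNPU in both repeats, and 89 (60.5%) had H3K4me1 in all 4 against 59.2%. Of the 39 genes with HNRNPU in neither repeat, 28 (71.8%) had no POLIIS2P 5' summit, 35 (89.7%) had no H3K27ac and 32 (82.1%) had no H3K4me1. Over all genes of that class the shares were 76.3%, 80.8% and 58.4%, so the lack of POLIIS2P was near the background. Of the 39 genes, 20 had an HNRNPU summit in the body or at the 3' end in both repeats. The class thus describes the outermost 5' end only and is not free of HNRNPU. The length of the lists bears on the presence of every mark, and its part in this overlap was not tested.

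**Figure D2:**
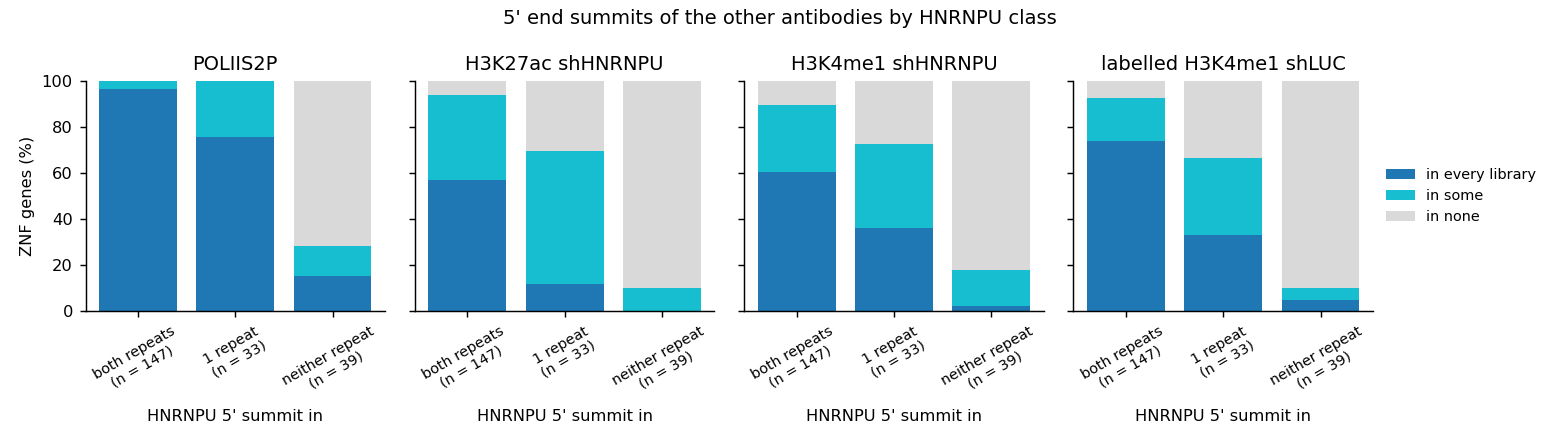
Percent of ZNF genes with a 5' summit in every library, in some or in none, for POLIIS2P, H3K27ac and H3K4me1 in shHNRNPU cells and the libraries labelled H3K4me1 shLUC. Genes are split by an HNRNPU 5' summit in both repeats (147), in 1 (33) or in neither (39). Of the 39, 20 had HNRNPU in the body or at the 3' end in both repeats. POLIIS2P at the 5' end in every library falls from 96.6% to 15.4% across the classes.

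Along the gene, POLIIS2P and the other antibodies parted. Each gene was cut into 10 equal parts from 5' to 3'. In the first part of the ZNF genes, HNRNPU had 11.4 summits per 100 kb against 4.60 over all genes, and H3K27ac in shHNRNPU cells had 13.8 against 5.25. In the last 3 parts HNRNPU fell to 0.46, 0.61 and 0.84 per 100 kb against 1.14, 1.15 and 1.31 over all genes. H3K27ac fell to 1.23, 1.15 and 0.88 against 3.00, 3.22 and 3.52, and H3K4me1 to 2.22, 2.26 and 2.84 against 6.69, 6.73 and 7.30. POLIIS2P instead had 7.05, 7.21 and 7.97 per 100 kb in these parts, above its 4.96, 5.43 and 6.81 over all genes. Without ZNF536, the longest of the genes, POLIIS2P had 7.62, 7.79 and 8.62 and H3K4me1 1.57, 1.28 and 1.57 per 100 kb there, a comparison added after seeing the data. In the last part the libraries of the ZNF genes spanned 7.21 to 8.89 per 100 kb for POLIIS2P and 0.15 to 1.23 for H3K27ac. The ZNF genes had a median length of 23254.5 bp, and all genes 24115 bp. These densities pool summits over the summed length of the genes, so long genes weigh more than the medians show. The longest ZNF gene had 487995 bp and the longest of all genes 2473620 bp. Summits per gene were not compared, and a higher density per 100 kb need not mean more summits per gene.

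**Figure D3:**
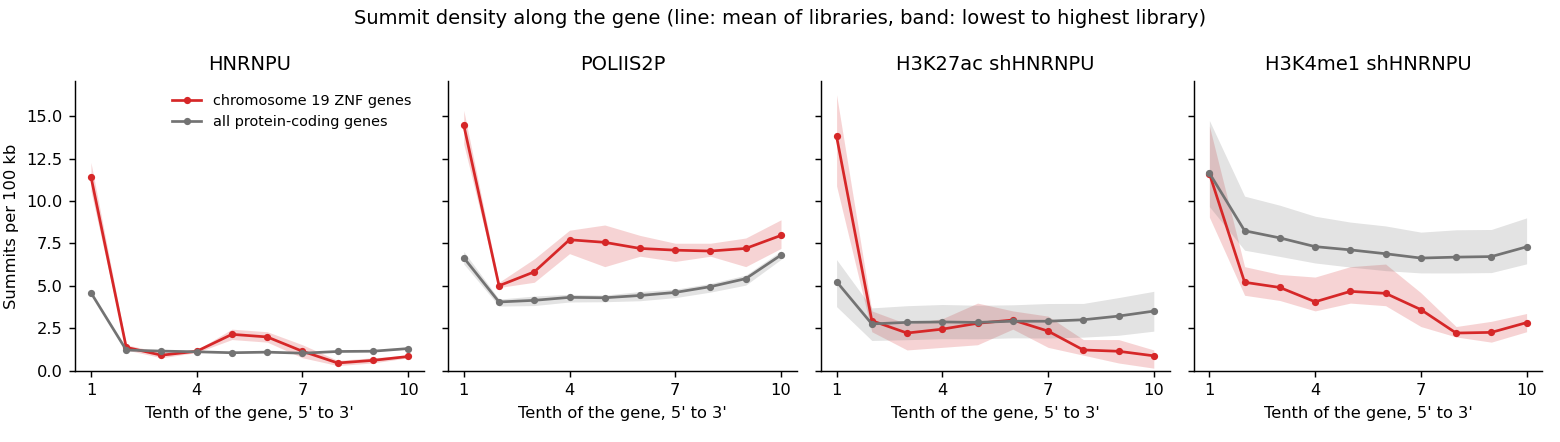
Summits per 100 kb in each of 10 equal parts of the gene from 5' to 3' for 4 antibodies, with lines for the mean over libraries and bands for the lowest and highest library. In the ZNF genes (red) HNRNPU, H3K27ac and H3K4me1 thin out towards the 3' end while POLIIS2P stays between 5.0 and 8.0 per 100 kb after the first part, above all protein-coding genes (grey).

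In the gene bodies, 63.5% of the 219 genes had a POLIIS2P summit on average, against 24.9% for HNRNPU, 33.4% for H3K27ac and 37.7% for H3K4me1 in shHNRNPU cells. Over all genes these shares were 56.8%, 36.2%, 49.3% and 61.3%. A body summit was present in every library at 115 genes for POLIIS2P, 46 for HNRNPU, 43 for H3K27ac and 56 for H3K4me1. Presence in every library was not counted over all genes for the bodies. Many of the HNRNPU body summits lay beside a listed start of the same gene. Of the 74 and 76 HNRNPU body summits, 48.6% and 48.7% were within 1000 bp of such a start, against 12.9% over all genes. The share was 24.5% for H3K27ac, 16.2% for H3K4me1 and 11.0% for POLIIS2P in the ZNF genes. HNRNPU body summits beside a listed start had a median percentile of 87.9, and those away from one 46.2. For POLIIS2P the same medians were 94.6 and 45.6. Leaving these summits out, 58.0% of the ZNF genes still had a POLIIS2P body summit, near the 54.7% of all genes, while 13.2% still had an HNRNPU body summit against 32.1% of all genes. RefSeq lists 2 or more starts for 36 of the 219 genes and 1 start for 183. A listed start lay at the gene edge, here taken as the 5' end, in 182 of them. In the other genes an inner start can be the only one listed.

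The 5 genes with the highest HNRNPU summits away from the 5' end and none at it were ZNF331, ZNF574, ZNF563, ZNF442 and ZNF302, with mean percentiles of 99.0, 98.5, 97.0, 96.9 and 96.6 over both repeats. In all 5 the HNRNPU summit lay at an inner start of the same gene. The distance to it was 183 and 75 bp at ZNF331, 139 and 134 bp at ZNF574, 217 and 184 bp at ZNF563, 18 and 150 bp at ZNF442, and 103 and 106 bp at ZNF302. ZNF331, an imprinted gene, is shown at the start next to the HNRNPU summit, which RefSeq places 17779 bp inside the gene at chr19:53520764-53521063 on the + strand of GRCh38.p14. Capitals mark CCAAT.
ZNF331: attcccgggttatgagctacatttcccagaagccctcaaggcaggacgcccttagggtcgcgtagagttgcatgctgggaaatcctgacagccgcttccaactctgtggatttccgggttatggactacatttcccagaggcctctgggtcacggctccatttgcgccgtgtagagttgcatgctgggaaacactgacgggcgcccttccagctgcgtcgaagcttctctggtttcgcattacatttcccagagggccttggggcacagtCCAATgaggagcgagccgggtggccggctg
Its HNRNPU summits were at percentiles 99.3 and 98.7. The highest POLIIS2P summit of ZNF331, at 99.8, 99.9 and 99.7, was 34404 to 34480 bp inside the gene and 332 to 408 bp from yet another listed start. The highest H3K4me1 summit was 8840 to 8846 bp inside and 8933 to 8939 bp from any listed start of the gene. The highest summits of these antibodies thus lay at different places in this gene. Each had further body summits there, whose places were not compared. At ZNF574 and ZNF563 the highest HNRNPU, POLIIS2P, H3K27ac and H3K4me1 summits instead all lay within 217 bp of 1 inner start.

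The highest POLIIS2P summits in gene bodies were those of ZNF43, ZNF875 and ZNF730, with means of 99.98, 99.9 and 99.9 over 3 libraries. They lay 19 to 71 bp, 3 to 37 bp and 196 to 233 bp from an inner listed start. ZNF43 was also the highest in the body for H3K27ac, with 99.7, 99.4, 99.6 and 99.9, and its outermost 5' end was lower for HNRNPU (73.9 and 65.6) than its inner start (94.2 and 96.1). ZNF563 and ZNF790 followed for H3K27ac, with means of 98.3 and 98.2. ZNF790 and ZNF345 lie on opposite strands and overlap, with 5' ends 427 bp apart, so the 5' windows of both genes overlap and share summits. In all, 8 pairs of the 219 genes had 5' ends within 1000 bp of each other, 6 of them on opposite strands.

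POLIIS2P was the antibody with 3' end summits in number. They were present in all 3 libraries at 29 genes, against 9 genes for H3K4me1 and 2 for H3K27ac in all 4 shHNRNPU libraries and 3 for HNRNPU in both repeats. Presence in every library was not counted over all genes for the 3' ends. The mean POLIIS2P share over all genes, given above, exceeded that of the ZNF genes. ZNF93 had POLIIS2P at 93.5, 92.5 and 95.2 at its 3' end beside 99.3, 97.1 and 98.1 at its 5' end. At 8 of the 29 genes the 3' summit ranked above the 5' summit in all 3 libraries, which was not counted over all genes. ZNF575 was among them, with 91.9, 94.7 and 91.4 at the 3' end and none at the 5' end. Its 3' end also carried H3K4me1 at 91.4, 96.2, 95.2 and 92.5, and HNRNPU at 57.7 and 34.6.

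Genes known for what they silence were compared at their 5' ends. ZNF91 represses SVA elements and ZNF93 represses L1 elements. ZNF91 had POLIIS2P at 99.6, 99.6 and 99.5, H3K27ac at 92.8, 97.0, 95.8 and 99.2 and HNRNPU at 62.6 and 82.3. ZNF93 had POLIIS2P at 99.3, 97.1 and 98.1, H3K27ac at 98.1, 98.1, 98.9 and 99.5 and HNRNPU at 92.2 and 94.3. ZNF274, which binds the 3' exons of other ZNF genes and brings SETDB1 there, had HNRNPU at 93.5 and 96.3, POLIIS2P at 93.2, 96.6 and 97.8 and H3K27ac at 89.2, 90.8, 85.2 and 91.4. ZNF274 itself carried POLIIS2P at its 3' end at 81.9, 76.6 and 38.9. ZNF808 had HNRNPU at 94.9 and 90.4 and POLIIS2P at 86.9, 94.5 and 88.6. ZNF350, also known as ZBRK1, was low, with HNRNPU at 28.2 and 38.8, POLIIS2P at 35.3, 34.7 and 77.2 and no H3K27ac or H3K4me1 5' summit in any library. ZNF534 and ZNF676 had no summit in any of the 17 lists, and ZNF649, whose strand was not known, had a highest summit at 92.8 to 96.8 for H3K27ac and at 47.0 and 74.0 for HNRNPU anywhere in the gene.

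The clusters differed in their marks. Taking members no more than 500 kb apart as a cluster and at least 10 members, 8 clusters were found and 24 genes lay outside them. HNRNPU 5' summits were most frequent in cluster 4 (26 genes, chr19:36182060-37779586), at 88.0% and 92.0% of its genes with strand in the 2 repeats, and least frequent in cluster 5 (23 genes, chr19:43530835-44500522), at 47.4% and 63.2%. Cluster 5 also had the lowest shares of POLIIS2P (64.9%) and H3K27ac (22.4%) among the clusters, and H3K27ac was in all 4 shHNRNPU libraries at only 2 of its 19 genes with strand. ZNF226, with the third highest HNRNPU level, is a gene of cluster 5. Cluster 1 (14 genes, chr19:8509678-9786160) had H3K27ac at 68.8% of its 5' ends but H3K4me1 at 25%, whereas its neighbour cluster 2 (25 genes, chr19:11483429-12633834) had 72.9% and 86.5%. In cluster 1 the lowest H3K27ac library was at 50% and the highest H3K4me1 library at 33.3%, so the libraries of the marks did not overlap. Cluster 3 (37 genes, chr19:19668153-24129968) had the highest median 5' percentile of H3K27ac among the clusters, 82.6 in shHNRNPU cells. It also held the most genes without a POLIIS2P summit anywhere, 10, and without an HNRNPU summit, 11. POLIIS2P body summits were densest in cluster 7, at 11.2 per 100 kb, and in cluster 3, at 9.99, against 1.84 per 100 kb in the genes outside clusters. The last value rested on ZNF536, with 487995 bp the longest gene of the list and without a POLIIS2P body summit, and was 4.17 per 100 kb without it. Clusters hold few genes and differ in gene length, from a median of 11623 bp in cluster 7 to 34630 bp in cluster 3, and no test was made between them.

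**Figure D4:**
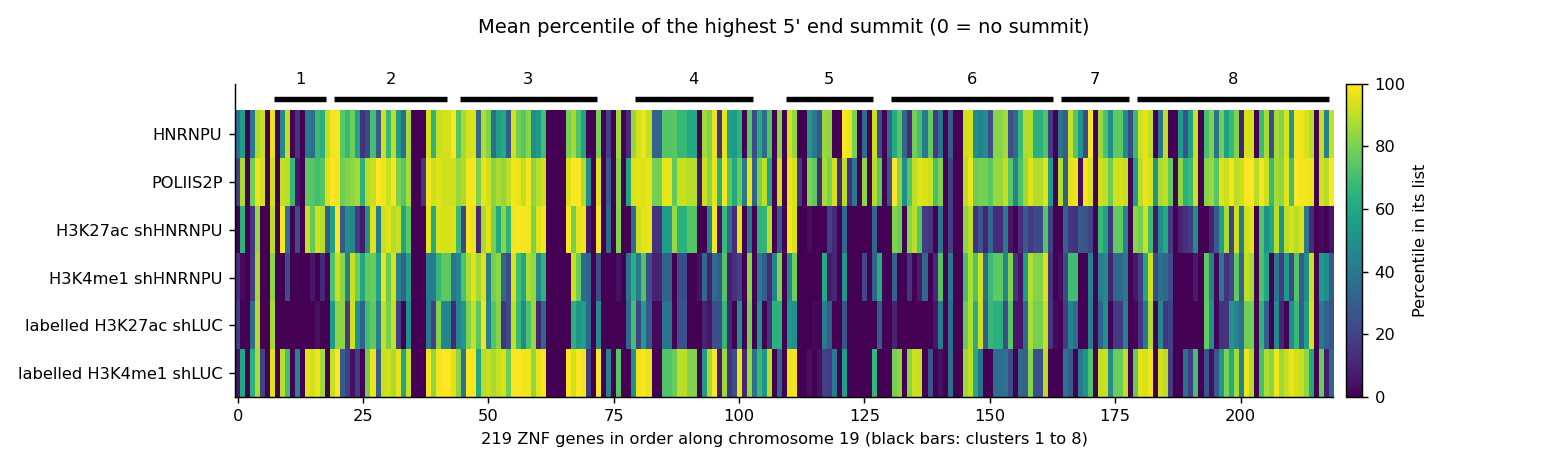
Mean percentile of the highest 5' summit (colour, 0 for none) in 6 library groups (rows) for the 219 ZNF genes in order along chromosome 19 (columns). Black bars mark clusters 1 to 8; cluster 5 is dark for H3K27ac, cluster 1 is dark for H3K4me1 but not for H3K27ac, and runs of genes without summits stand in cluster 3.

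Genes without a called summit stood beside genes with summits in every list, and expression was not analysed here. A summit in all 17 lists was found at 88 of the 250 genes (35.2%, against 37.4% of all genes), and none in any list at 14 (5.60% against 8.63%). The 14 genes were ZNF556, ZNF560, ZNF208, ZNF257, ZNF676, ZNF729, ZNF98, ZNF492, ZNF99, ZNF723, ZNF728, ZNF726, ZNF404 and ZNF534, of which ZNF676 and ZNF534 were listed for their known roles and the others were named after their values were seen. ZNF208 shares stretches of 30 bases of its promoter with the promoters of 12 other chromosome 19 ZNF genes, 8 of which had summits in all 17 lists and 1 of which had none. ZNF85, with a summit in 15 of the 17 lists, was among the genes with most such stretches in common with it. The ZNF208 promoter (chr19:22010894-22011193, - strand) is shown beside that of ZNF85 (chr19:20923001-20923300, + strand), with the longest stretch common to both, 46 bases, in capitals.
ZNF208: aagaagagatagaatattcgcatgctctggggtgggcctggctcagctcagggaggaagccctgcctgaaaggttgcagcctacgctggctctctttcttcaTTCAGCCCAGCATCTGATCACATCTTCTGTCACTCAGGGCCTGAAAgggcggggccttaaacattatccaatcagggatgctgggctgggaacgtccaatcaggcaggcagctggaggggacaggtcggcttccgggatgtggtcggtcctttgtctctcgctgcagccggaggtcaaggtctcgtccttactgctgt
ZNF85: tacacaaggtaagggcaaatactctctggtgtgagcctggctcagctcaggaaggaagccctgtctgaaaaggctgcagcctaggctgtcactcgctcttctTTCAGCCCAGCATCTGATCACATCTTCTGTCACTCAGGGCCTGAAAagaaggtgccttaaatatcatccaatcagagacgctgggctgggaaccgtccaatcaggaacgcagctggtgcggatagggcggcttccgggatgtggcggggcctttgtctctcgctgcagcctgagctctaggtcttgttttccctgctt
ZNF85 had HNRNPU at 60.5 and 61.0, POLIIS2P at 70.7, 86.7 and 92.5 and H3K27ac at 81.0, 69.3, 85.3 and 94.7 at its 5' end, where ZNF208 had none. The promoters held 9 CpG in ZNF85 and 10 in ZNF208. ZNF534 (chr19:52428898-52429197, + strand), which had no shared stretch, held 20 CpG, a CCGGAAG and a GGGCGG on the other strand, shown in capitals, and still had no summit.
ZNF534: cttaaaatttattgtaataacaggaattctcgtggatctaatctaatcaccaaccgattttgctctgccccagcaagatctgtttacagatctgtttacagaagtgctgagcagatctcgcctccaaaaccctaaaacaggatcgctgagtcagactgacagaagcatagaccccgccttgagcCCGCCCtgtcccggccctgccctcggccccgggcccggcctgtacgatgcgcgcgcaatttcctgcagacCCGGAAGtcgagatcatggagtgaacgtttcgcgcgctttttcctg
How reads that match several copies of a repeated promoter were placed was not given in the sources used here, and its part in the missing summits was not tested.

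The promoters of the 219 genes were read for short motifs on either strand. CCGGAAG, the core read by ETS factors, was in 45.2% of ZNF gene promoters against 14.2% of the promoters of all protein-coding genes. CCAAT, the NF-Y motif, was in 53.9% against 36.4%, and GGGCGG, the GC box of Sp factors, in 67.1% against 58.3%. TATAAA was in 2.28% against 9.75% and CACGTG in 4.11% against 8.82%. The median number of CpG was 20 against 22. The 4 other motifs searched, those of NRF1, ZBTB33, YY1 and CREB, were in 2.74%, 0.913%, 3.65% and 3.20% of ZNF gene promoters against 1.77%, 0.669%, 2.69% and 2.56% of all. Among the ZNF genes, CCGGAAG was in 44.2% of the 163 with HNRNPU at a listed start in both repeats and in 50% of the 20 with it at none. CCAAT was in 53.4% and 60.0% of these classes, and the median number of CpG was 20 and 16. Over all genes CCGGAAG was in 21.0% and 5.02% of the same classes. A match is a description of letters in a window of 300 bases. At least 1 shared stretch of 30 bases was in 27.9% of ZNF gene promoters against 7.50% of all, but promoters with over 50% of their stretches shared were 10 of 219 (4.57%) against 4.44%.

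The effect of HNRNPU depletion was read from the highest summit in each gene with a summit in all 6 libraries of a comparison, with limma over all protein-coding genes and Benjamini-Hochberg adjustment. The comparison is of 4 shHNRNPU against 2 shLUC libraries, in percentile points. Repeats are not stated to be separate cultures, so the p-values measure the spread between these libraries, which may be technical. In these bulk libraries fewer cells with a mark cannot be told apart from less of the mark per cell.

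With H3K4me1 as labelled, 10 of 135 ZNF genes were higher and 43 lower in shHNRNPU cells, at limma's adjusted p under 0.05. Over all genes 27.5% were higher and 13.5% lower, so the ZNF genes leaned the other way, with a median difference of -14.2 points against 2.09 over all genes. ZNF544 had 21.5, 21.2, 24.9 and 18.5 in the shHNRNPU libraries and 96.4 and 96.9 in the shLUC libraries, a difference of -75.1 points (SE 10.2, limma adjusted p = 0.00188). ZNF260, ZNF345, ZNF383 and ZNF529, all of cluster 4, followed with -73.5, -66.6, -64.7 and -59.1 points. The largest rises were at ZNF575 (59.9 points, SE 10.7, limma adjusted p = 0.00499), ZNF526 (48.8), ZNF888 (40.6), ZNF600 (34.8) and ZNF584 (31.3). With H3K27ac as labelled, 50 of 104 ZNF genes were higher and 0 lower, against 15.2% and 3.55% of all genes, with a median of 18.5 points against -3.09. At an unadjusted p under 0.05 by limma the share of all genes was 53.1% for H3K4me1 and 37.6% for H3K27ac, against 76 of 135 and 63 of 104 ZNF genes. ZNF333 had 96.4, 94.6, 95.9 and 95.3 against 10.9 and 11.1, a difference of 84.5 points (SE 9.13, limma adjusted p = 0.00273), and ZNF302, ZNF383, ZNF529 and ZNF260 followed with 77.6, 74.6, 73.8 and 68.7. Thus ZNF260, ZNF383 and ZNF529 fell in H3K4me1 and rose in H3K27ac under the same labels. The counts rested on few libraries: 21 ZNF genes (15.6%, against 29.8% of all genes) were called for H3K4me1 without shLUC repeat 1 and 32 (23.7% against 40.1%) without shLUC repeat 2, 33 for H3K27ac (31.7% against 11.1%) without repeat 1 of shHNRNPU#2, and with shHNRNPU#1 alone none was called for either mark.

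With the antibody names of the shLUC libraries exchanged, no ZNF gene passed limma's adjusted p of 0.05. For H3K4me1, 0 of 139 were called against 0% of all 14519 genes, the smallest adjusted p among ZNF genes was 0.719, and 17 (12.2%) had an unadjusted p under 0.05 against 5.54% of all genes, 15 higher and 2 lower. The median difference of the ZNF genes was 3.79 points against -0.27 over all genes, and 97 of 139 were higher. Without repeat 2 of shHNRNPU#2, the list with the most summits, the median was 1.39. For H3K27ac, 0 of 125 were called against 0% of all genes, 4 had an unadjusted p under 0.05 (3.20% against 2.44% of all genes), and the median was -2.15 points against -2.81. The mean of both histone marks, which does not depend on the names, gave 0 of 92 called against 0% of all genes, 2 with an unadjusted p under 0.05 (2.17% against 2.53%), and a median of 0.52 points against -1.51. Opposite changes of the 2 marks cancel in the mean of both, so it cannot show them. ZNF260, at -73.5 points in H3K4me1 and 68.7 in H3K27ac as labelled, had -2.41 points there. After the exchange of names ZNF333 differed by 0.45 points (SE 1.93, limma adjusted p = 0.966) and ZNF302 by -2.37 points (SE 3.43, limma adjusted p = 0.892) in H3K27ac. ZNF544 kept the lowest H3K4me1 difference, -27.2 points (SE 11.7), with limma's adjusted p = 0.878. ZNF260 had H3K4me1 at 25.8, 12.9, 19.3 and 35.8 in shHNRNPU cells and 19.8 and 35.4 in the libraries labelled H3K27ac shLUC, which overlap.

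**Figure D5:**
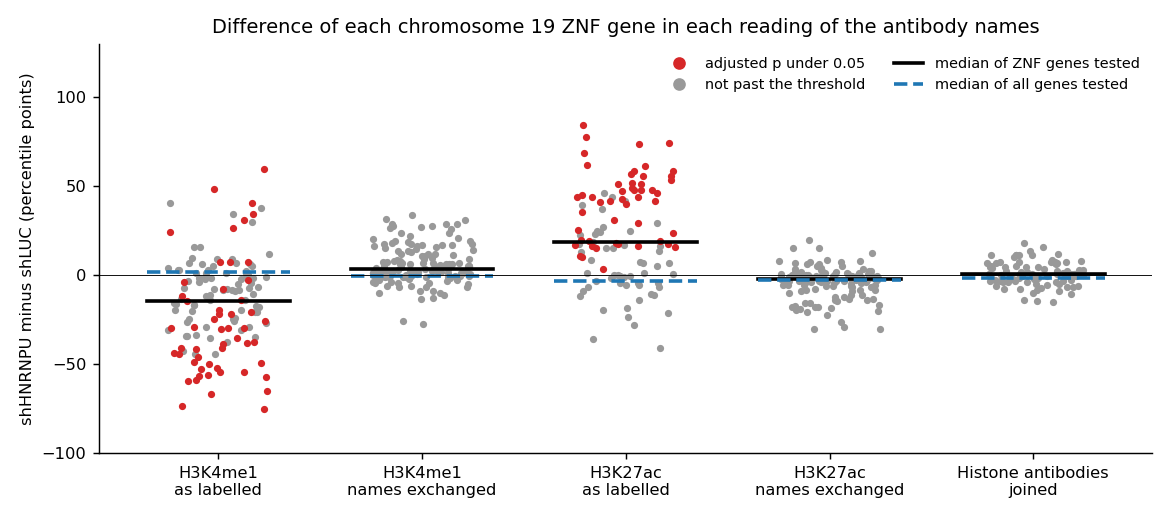
Difference of the highest percentile between shHNRNPU and shLUC libraries (percentile points) for each ZNF gene (dots, red at limma adjusted p under 0.05) in 5 comparisons, with the median of the ZNF genes (black) and of all genes tested (dashed blue). Medians are -14.2 and 18.5 points as labelled, and 3.79, -2.15 and 0.52 points with names exchanged or marks joined.

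Whole 5' summits were gained or lost at few genes with names exchanged. In that reading, an H3K4me1 5' summit was in all 4 shHNRNPU libraries and neither control at 3 of 219 ZNF genes, against 0.366% of all genes, and the reverse held at 1, against 0.341%. The 3 genes were ZNF180, ZNF841 and ZNF274, and the lost one was ZNF331, where the control summits were at only 1.71 and 3.36. ZNF274 had H3K4me1 at 71.2, 79.0, 10.5 and 58.0 in shHNRNPU cells and none in both libraries labelled H3K27ac shLUC. An H3K27ac 5' summit was gained at 0 genes (0.0821% of all genes) and lost at 1, ZNF585A (0.833% of all genes), whose controls were at 86.1 and 21.1. These 5 genes were named after their values were seen. As labelled, 7 were gained and 10 lost for H3K4me1, against 11.1% and 3.19% of all genes, and 17 gained and 7 lost for H3K27ac, against 3.48% and 13.6%.

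POLIIS2P had 1 library of shHNRNPU#1 cells and no replicate check. Of 220 ZNF genes with a summit in all 3 libraries, 5 lay over 10 points above both shLUC libraries (5.13% of all genes did) and 10 lay over 10 points below both (9.56% of all genes). Against either shLUC library alone, 37 ZNF genes were past 10 points (16.7% and 16.4%, against 27.8% and 27.4% of all genes). The median difference from the mean of the shLUC libraries was 0.00928 points, and its median size was 2.47 points against 2.09 points between the shLUC libraries themselves. Of these 15 genes the greatest differences were at ZNF579, with 80.5 in the shHNRNPU#1 library against 8.50 and 36.7 in the controls, and at ZNF358, with 44.8 against 91.8 and 81.1, both named after their values were seen. ZNF600, one of the genes above, had 88.6 against 77.3 and 66.1.

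The genes that work with KRAB zinc finger proteins were looked at as a list of 24, of which 21 had a strand. HNRNPU was at the 5' end in both repeats of 17 of the 21, POLIIS2P in all 3 libraries of 17, H3K27ac in all 4 shHNRNPU libraries of 12 and H3K4me1 of 12. Over all protein-coding genes the shares in every library were 48.1%, 49.2%, 25.5% and 40.9%. SETDB1, the H3K9 methyltransferase, had a mean of 98.8 for HNRNPU, 93.8 for POLIIS2P and 93.1 for H3K27ac. CBX3 and CBX5, which encode HP1 proteins, had means of 99.5 and 98.2 for HNRNPU and 99.3 and 97.5 for POLIIS2P. ZFP57, an imprint keeper, had no HNRNPU or POLIIS2P summit. As labelled, limma called 4 of 20 tested higher and 3 lower in H3K4me1, against 27.5% and 13.5% of all genes, and 2 of 20 higher in H3K27ac against 15.2%, TRIM28 (55.5 points, SE 7.06, limma adjusted p = 0.00294) and CBX5 (5.56 points). With names exchanged 0 of 21 and 0 of 22 were called, and with marks joined 0 of 19, the same share as all genes.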

How the data were processed

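H1 cells were profiled by CUT&Tag in 17 libraries. The submitters' processing notes name cutadapt, Bowtie2, SAMtools, MACS2, deepTools and the build hg38, without versions. The authors deposited 1 MACS2 summit list per library, whose score is the −log10 of the peak's p-value, with lowest scores near 2 for the histone marks and 1.3 for HNRNPU and POLIIS2P, and a list of 48095 HNRNPU intervals of 400 bp used only as an alternative. Read depth, and the treatment of reads that map to several places, were not given in the sources used here.

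Scores were turned into percentiles within each list. Gene positions and promoters came from RefSeq GRCh38.p14, and strand from its promoter table, which covered 219 of the 250 genes. Windows reached 1000 bp from each end. Groups followed the sample titles, whose antibody for the 4 shLUC histone libraries is opposite to the list names. Differences were fitted with limma 3.58.1 in R 4.3.3 (trend, Benjamini-Hochberg, adjusted p under 0.05) over all protein-coding genes with a summit in all 6 libraries, after a test on simulated data. POLIIS2P, with 1 shHNRNPU library, was compared by size only. Python 3.11.15, pandas 2.3.3, numpy 2.4.6 and matplotlib 3.10.9 were used.

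The members and lists were chosen with earlier results of these data known. Genes were named as the 5 largest rises and falls called per limma comparison, the 5 highest for HNRNPU at the 5' end and the 5 highest elsewhere without a 5' summit, the 3 highest at the 5' end and the 3 highest elsewhere for POLIIS2P and H3K27ac, and 8 genes with known roles. Protein features and exons were not analysed here, and 1 marker gene of another lineage is not reported here.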

Additional observations from a re-analysis of the deposited data

How the results depend on the processing

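The excess of 5' over 3' summits of the ZNF genes kept its direction under the alternatives run. For HNRNPU it was 65.5 points among the strongest 20000 summits, 30.6 with a minimum score of 10, 78.5 with the series-wide intervals and 80.6 with any listed start in place of the outermost base, the last chosen after seeing the data. For POLIIS2P it was 66.5 with windows of 500 bp, 43.4 with 2000 bp and 66.7 with any listed start. For H3K27ac it was 39.0 and 26.6, and for H3K4me1 7.99 and 32.4, among the strongest summits and with the minimum score, and H3K4me1 gave 64.7 with any listed start. Leaving out a library gave 69.9 to 75.3 for HNRNPU, 57.3 to 60.5 for POLIIS2P, 52.8 to 58.4 for H3K27ac and 53.6 to 59.7 for H3K4me1.

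As labelled, H3K4me1 called 92 of 164 ZNF genes among the strongest summits (56.1%, against 43.4% of all genes), 29 of 75 at the 5' end only (38.7% against 34.2%), and 0 of 135 (0% of all genes) with shHNRNPU#1 or shHNRNPU#2 alone, and 21 to 55 without 1 library (15.6% to 40.7%, against 29.1% to 40.1% of all genes). H3K27ac as labelled called 0 with shHNRNPU#1 alone (0% of all genes) and 33 to 48 without 1 library (31.7% to 46.2%, against 11.1% to 22.3% of all genes). With 1 shLUC library left, it is assumed to vary like the other group. With names exchanged, or the marks joined, 0 were called under all alternatives run. The POLIIS2P count was 53 of 213 among the strongest summits (24.9%, against 29.2% of all genes), 6 of 220 at 20 points (2.73% against 5.90%) and 37 without either shLUC library. Without ZNF536 the POLIIS2P body density of the genes outside clusters was 4.17 per 100 kb in place of 1.84. The other causes were not tested. Repeat numbers did not pair the libraries: deviations of same-numbered libraries correlated between -0.02 and 0.04. With the replicate block 54 ZNF genes were called for H3K4me1 (40% against 41.9% of all genes) and 46 for H3K27ac as labelled (44.2% against 14.1%), and 0 in the other 3 comparisons. Of the alternatives for single named genes, 149 kept the call and 39 lost it, none with a change of direction.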
